A study of Homo sapiens with 38 samples.

Results

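The developmental pluripotency-associated genes DPPA2, DPPA3, DPPA4 and DPPA5 were followed in human naive pluripotent stem cells that left the naive state in 5 media. Members were the rows of the count table with these symbols, 4 of 57133 rows, and all 4 passed the filter on low counts that left 16674 genes. RNA was measured by QuantSeq, a 3′ tag method whose reads come from the 3′ ends of polyadenylated transcripts, in 38 libraries of Shef6, an established human embryonic stem cell line, all from serum-adapted cells. Experiment 1 (Ex1, 30 libraries) held naive cells in PXGL medium on serum coating or on Geltrex, and cells plated on Geltrex in N2B27 or E8 for 2, 3, 4, 6 and 8 days or in mTeSR for 4, 6 and 8 days. Experiment 2 (Ex2, 8 libraries) held naive cells on Geltrex and day 4 cells in N2B27 alone or with added factors, either XAV939, a tankyrase inhibitor (XAV), or FGF2 and Activin A together with XAV939 (FAX). Each group had 2 libraries. The 6 naive libraries were pooled as the reference and the 4 N2B27 day 4 libraries were pooled, so that 15 conditions were compared with the same naive libraries. Nothing in the labels states that replicates came from separate cultures, so the p-values measure the spread between these libraries, which may be technical.

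DPPA2 and DPPA4 encode nuclear proteins with a SAP domain that bind each other and chromatin, and in mouse embryonic stem cells they are known to keep developmental promoters free of DNA methylation and to help switch on genes of the early cleavage embryo. DPPA3, also called STELLA, is a maternal factor and a germ cell marker that counteracts DNA methylation by drawing the maintenance factor UHRF1 off chromatin. DPPA5 encodes a KH domain protein that binds RNA, and its gene lies beside genes of the subcortical maternal complex of the oocyte.

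DPPA2 and DPPA4 were neighbours on the minus strand of chromosome 3 (GRCh38, GENCODE annotation), DPPA2 at 109293788 to 109316517 and DPPA4 at 109326144 to 109337546, with 9626 bases and 0 annotated genes between them. DPPA3 lay on the plus strand of chromosome 12 at 7711433 to 7717559. DPPA5, the shortest of the 4 genes, lay on the minus strand of chromosome 6 at 73353063 to 73354276, 8381 bases from KHDC3L. The 250 bases before each RefSeq start (GRCh38.p14) are shown because DPPA2 and DPPA4 rose together while DPPA5 fell, and capitals mark CpG dinucleotides, the sites of DNA methylation.
DPPA2, chr3:109316518-109316767, minus strand: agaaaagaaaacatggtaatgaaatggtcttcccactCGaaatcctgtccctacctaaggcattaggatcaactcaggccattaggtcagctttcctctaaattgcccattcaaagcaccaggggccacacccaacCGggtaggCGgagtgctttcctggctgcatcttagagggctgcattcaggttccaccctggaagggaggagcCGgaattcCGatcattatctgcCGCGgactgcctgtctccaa
DPPA4, chr3:109337547-109337796, minus strand: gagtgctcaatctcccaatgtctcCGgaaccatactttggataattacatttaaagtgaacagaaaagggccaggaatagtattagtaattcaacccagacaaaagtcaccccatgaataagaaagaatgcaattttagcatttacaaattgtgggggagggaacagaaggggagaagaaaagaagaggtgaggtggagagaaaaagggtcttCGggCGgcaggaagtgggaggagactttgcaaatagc
DPPA3, chr12:7711183-7711432, plus strand: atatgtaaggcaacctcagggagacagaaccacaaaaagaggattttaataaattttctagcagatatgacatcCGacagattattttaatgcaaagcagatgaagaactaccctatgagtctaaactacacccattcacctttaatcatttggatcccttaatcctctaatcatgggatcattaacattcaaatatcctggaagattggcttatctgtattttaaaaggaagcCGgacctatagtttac
DPPA5, chr6:73354277-73354526, minus strand: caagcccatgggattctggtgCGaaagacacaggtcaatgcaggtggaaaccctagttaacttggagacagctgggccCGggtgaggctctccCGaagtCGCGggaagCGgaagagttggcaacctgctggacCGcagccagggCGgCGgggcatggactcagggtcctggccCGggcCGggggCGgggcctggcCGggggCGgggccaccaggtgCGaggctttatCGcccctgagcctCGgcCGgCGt
The window of DPPA5 held 19 CpG dinucleotides and 68.8% G or C, and that of DPPA2 held 7 CpG and 52.0%. DPPA4 with 3 CpG and DPPA3 with 2 CpG were poorer. Over 35116 RefSeq promoters the median window of this length held 11 CpG (quartiles 3 and 23), and 65.4% of them held fewer than that of DPPA5. No DNA methylation was measured in these libraries.

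Over the 16 conditions DPPA2 had the widest range of mean levels among the members, 4.86-fold. In E8 at day 2, however, DPPA5 changed more, with a log2 fold change from naive of -1.24 against 0.44 for DPPA2. In the 6 naive libraries DPPA2 ranged from 18.8 to 37.0 CPM with a median of 24.4 (mean 24.9 ± 6.55 SD), where CPM are TMM-scaled counts per 1000000 counts of tested genes. In N2B27 the libraries read 86.2 and 57.0 CPM at day 2, 96.7 and 115 at day 3, 128 and 111 in Ex1 and 94.1 and 101 in Ex2 at day 4, 118 and 124 at day 6, and 109 and 101 at day 8. Every N2B27 library stood above every naive library, and the level at day 6 was the highest of all 16 conditions. How many of all genes separate from the naive libraries in this way was not counted, here or for the other members. In E8 DPPA2 read 30.8 and 37.7 CPM at day 2, 44.1 and 74.9 at day 3, 66.6 and 70.8 at day 4, 91.8 and 91.1 at day 6, and 94.8 and 80.3 at day 8. At day 2 in E8 a library of DPPA2 still lay within the naive range. In mTeSR DPPA2 stood at 73.9 and 81.3 CPM at day 4, 96.4 and 107 at day 6, and 97.5 and 79.8 at day 8, and at day 4 in Ex2 at 92.2 and 104 in XAV and at 111 and 107 in FAX.

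A gene was called when edgeR's quasi-likelihood test gave a Benjamini-Hochberg adjusted p under 0.05 over all 16674 genes and the log2 fold change exceeded 1 in size. DPPA2 was called higher than in naive cells in 14 of 15 conditions. Its log2 fold change was 2.25 ± 0.17 (SE) at day 6 in N2B27 (edgeR adjusted p 3.59e-13) and 2.05 ± 0.17 at day 8 in N2B27. At day 8 it was 1.79 ± 0.17 in E8 and 1.81 ± 0.18 in mTeSR. The condition without a call was E8 at day 2, with 0.44 ± 0.21 (edgeR adjusted p 0.0822), which passed the adjusted p in 4 refits, among them RLE scaling and DESeq2. Against naive libraries of the same experiment it was 0.31 (edgeR adjusted p 0.192). Of all genes tested, 9.86%, 9.78%, 12.5%, 16.4% and 16.9% were called higher in N2B27 at days 2, 3, 4, 6 and 8. In E8 at the same days the shares were 13.9%, 11.8%, 13.6%, 15.8% and 18.2%. In mTeSR at days 4, 6 and 8 they were 12.8%, 15.7% and 16.9%, and they were 10.5% in XAV and 10.3% in FAX.

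**Figure D1:**
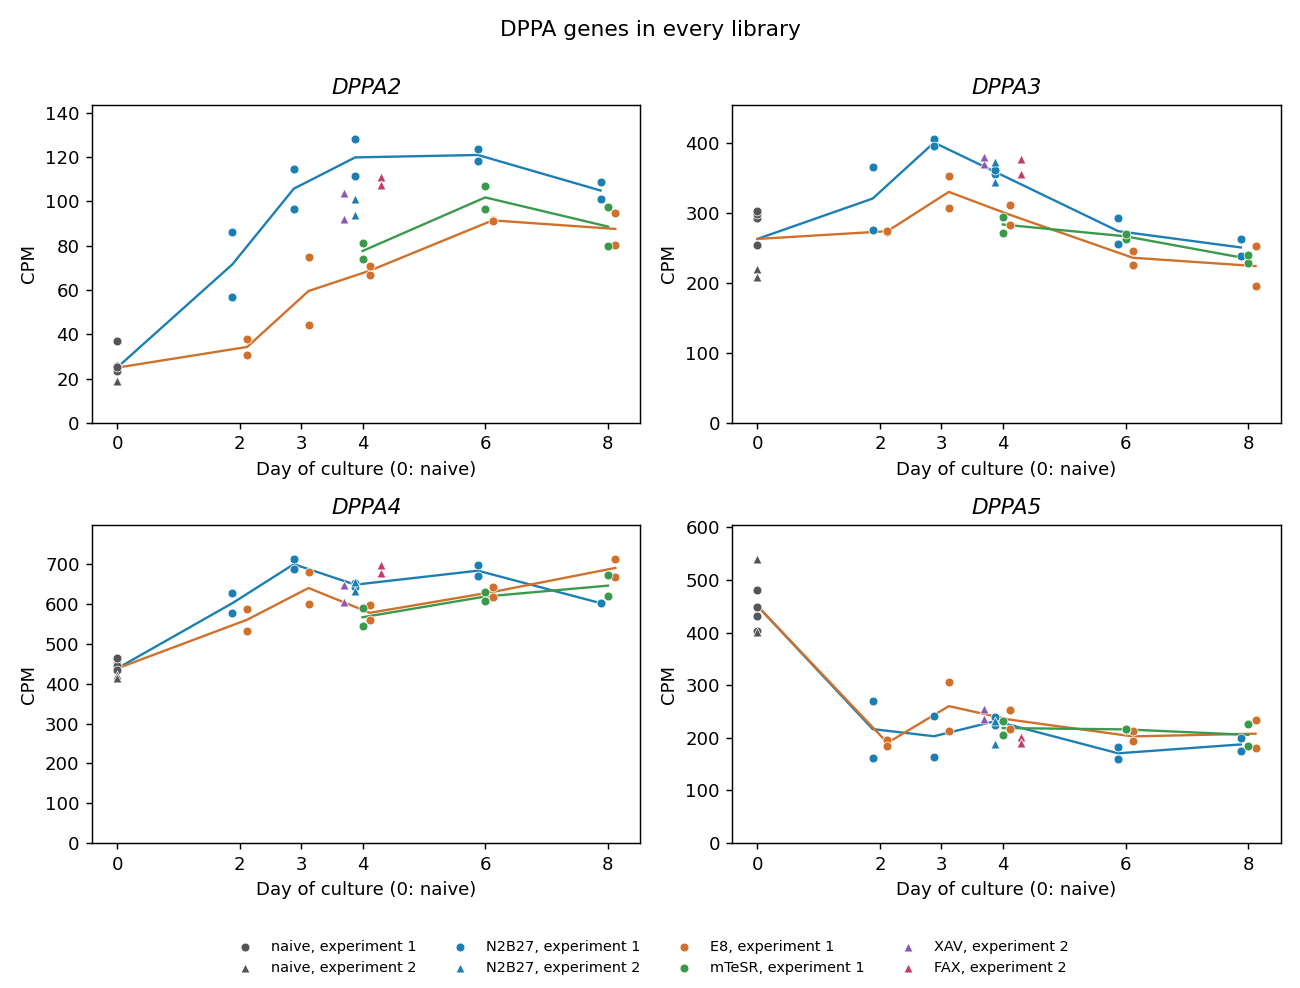
Levels of the 4 DPPA genes in every library, in CPM (y axis, from 0), against the day of culture (x axis, day 0 for naive cells). Points are libraries coloured by medium, circles from experiment 1 and triangles from experiment 2, and lines join experiment 1 means (N2B27 and E8 from the mean of all naive libraries). DPPA2 and DPPA4 lie above and DPPA5 below their naive levels at later days, and DPPA3 is highest in N2B27 at day 3.

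DPPA4, the partner of DPPA2, rose in every condition by less than 2-fold. The naive libraries ranged from 413 to 466 CPM with a median of 440.3 (mean 438 ± 19.1). The lowest of all other libraries was at 533 CPM (E8 day 2), so the naive libraries and the 32 others did not overlap. The share of all genes without such overlap was not counted. In each condition 41.7% to 55.2% of all genes had an unadjusted edgeR p under 0.05 against naive cells. In N2B27 the libraries read 628 and 577 CPM at day 2, 713 and 687 at day 3, 698 and 670.0 at day 6, and 603 and 602 at day 8. At day 4 in N2B27 they read 653 and 644 in Ex1 and 657 and 632 in Ex2. In E8 they read 588 and 533 at day 2, 682 and 599 at day 3, 597 and 559 at day 4, 643 and 618 at day 6, and 669 and 713 at day 8. Each of these libraries stood above the highest naive library. In mTeSR it stood at 589 and 545 CPM at day 4, 629 and 609 at day 6, and 674 and 619 at day 8. XAV gave 647 and 606 CPM and FAX gave 677 and 699.

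No condition was called for DPPA4 (0 of 15 by edgeR and by DESeq2), since its log2 fold changes ran from 0.36 ± 0.07 in E8 at day 2 to 0.68 ± 0.07 in N2B27 at day 3. All 15 nevertheless had an edgeR adjusted p under 0.05, the largest being 0.00023 (E8 at day 2). With a covariate for the main axis on which replicates differed, E8 at day 2 missed this threshold (0.26, edgeR adjusted p 0.0637). At this threshold without the fold limit, 18.9%, 17.9%, 22.5%, 24.9% and 24.7% of all genes were higher in N2B27 at days 2, 3, 4, 6 and 8. The shares were 24.2%, 19.5%, 21.4%, 23.1% and 26.8% in E8 at the same days. They were 20.3%, 23.3% and 24.7% in mTeSR at days 4, 6 and 8, 18.0% in XAV and 18.1% in FAX.

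DPPA5 fell in every medium, and it was already low at day 2 in N2B27 and E8, the media sampled on that day. With a covariate for the main axis on which replicates differed, the day 2 log2 fold changes were smaller and not called (-0.68 in N2B27 and -0.63 in E8). The naive libraries ranged from 401 to 540 CPM with a median of 439 (mean 451 ± 52.6). In N2B27 the libraries read 271 and 163 CPM at day 2, 164 and 242 at day 3, 182 and 159 at day 6, and 176 and 199 at day 8. At day 4 in N2B27 they read 239 and 225 in Ex1 and 232 and 188 in Ex2. In E8 they read 196 and 185 at day 2, 214 and 307 at day 3, 217 and 252 at day 4, 212 and 193 at day 6, and 235 and 181 at day 8. All stood below the lowest naive library, and their order by day was not the same in both media. In mTeSR DPPA5 stood at 232 and 205 CPM at day 4, 215 and 217 at day 6, and 226 and 185 at day 8. XAV gave 236 and 254 CPM, and FAX gave 201 and 189.5.

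DPPA5 was called lower than in naive cells in 12 of 15 conditions, with log2 fold changes down to -1.40 ± 0.17 in N2B27 at day 6 (edgeR adjusted p 2.14e-08). The conditions without a call were E8 at day 3 (-0.79 ± 0.16, edgeR adjusted p 0.000202), E8 at day 4 (-0.94 ± 0.16, edgeR adjusted p 1.61e-05) and XAV (-0.88 ± 0.16, edgeR adjusted p 5.19e-05), each short of the fold limit only. Of all genes, 6.30%, 5.83%, 5.96%, 6.69% and 7.03% were called lower in N2B27 at days 2, 3, 4, 6 and 8. In E8 the shares were 10.7%, 5.99%, 7.21%, 7.47% and 9.24%. They were 6.93%, 6.87% and 8.20% in mTeSR at days 4, 6 and 8, 6.54% in XAV and 6.77% in FAX. With 1 library left out at a time, between 9 and 13 of the 15 conditions were called, the 9 without replicate 1 of the Ex2 naive cells on Geltrex, the library with the highest DPPA5.

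DPPA3 followed another course, with a modest and passing rise. The naive libraries ranged from 208 to 304 CPM with a median of 273 (mean 263 ± 41.8). In N2B27 the libraries read 366 and 276 CPM at day 2, 406 and 395 at day 3, 293 and 255 at day 6, and 238 and 263 at day 8. At day 4 in N2B27 they read 356 and 362 in Ex1 and 344 and 374 in Ex2, above every naive library. In E8 they read 274 and 275 at day 2, 307 and 354 at day 3, 283 and 312 at day 4, 246 and 226 at day 6, and 253 and 196 at day 8. The E8 libraries of days 2, 6 and 8 thus lay within or below the naive range. In mTeSR DPPA3 stood at 295 and 272 CPM at day 4, 263 and 271 at day 6, and 229 and 240.4 at day 8, and at day 4 XAV gave 370 and 381 and FAX gave 378 and 355.

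None of the 15 conditions was called for DPPA3 by edgeR or by DESeq2, and 6 had an unadjusted edgeR p under 0.05, against 41.7% to 55.2% of all genes in each condition. The adjusted p was under 0.05 in 5, all higher than naive and at day 3 or 4. These were N2B27 at day 3 (0.61 ± 0.12, edgeR adjusted p 0.000115) and day 4 (0.45 ± 0.09), E8 at day 3 (0.33 ± 0.12), XAV (0.51 ± 0.12) and FAX (0.48 ± 0.12). N2B27 at day 2 was at 0.29 ± 0.12 (edgeR adjusted p 0.0608) and passed in 10 other refits. E8 at day 3 missed the threshold in 8 of 22 refits. Among them were those without E8 day 3 replicate 2 (0.23, edgeR adjusted p 0.288) and without replicate 1 of the Ex2 naive cells (0.28, edgeR adjusted p 0.0585). The share of all genes higher at that threshold was 17.9% to 22.5% in these conditions. The naive libraries of the 2 experiments differed for this gene, at 287 ± 22.9 CPM in Ex1 (n = 4) and 214 ± 8.86 in Ex2 (n = 2). Against naive libraries of the same experiment, the log2 fold change was 0.81 in XAV and 0.78 in FAX, and 0.48 at day 3 and 0.53 at day 4 in N2B27. It was 0.20 in E8 at day 3, no longer past the threshold (edgeR adjusted p 0.107). DPPA3 was then lower than naive at day 8 in E8 (-0.35, edgeR adjusted p 0.00402) and mTeSR (-0.29, edgeR adjusted p 0.0186) and at day 6 in E8 (-0.28, edgeR adjusted p 0.0232), against -0.23 ± 0.12, -0.17 ± 0.12 and -0.16 ± 0.12 with all naive libraries, none of which passed. The day 8 value in E8 passed in 8 refits, among them those with the experiment as a covariate or with a covariate for the main axis on which replicates differed (-0.30, edgeR adjusted p 0.0354), and the other 2 passed in 2 refits each, both with naive libraries of Ex1 alone.

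**Figure D2:**
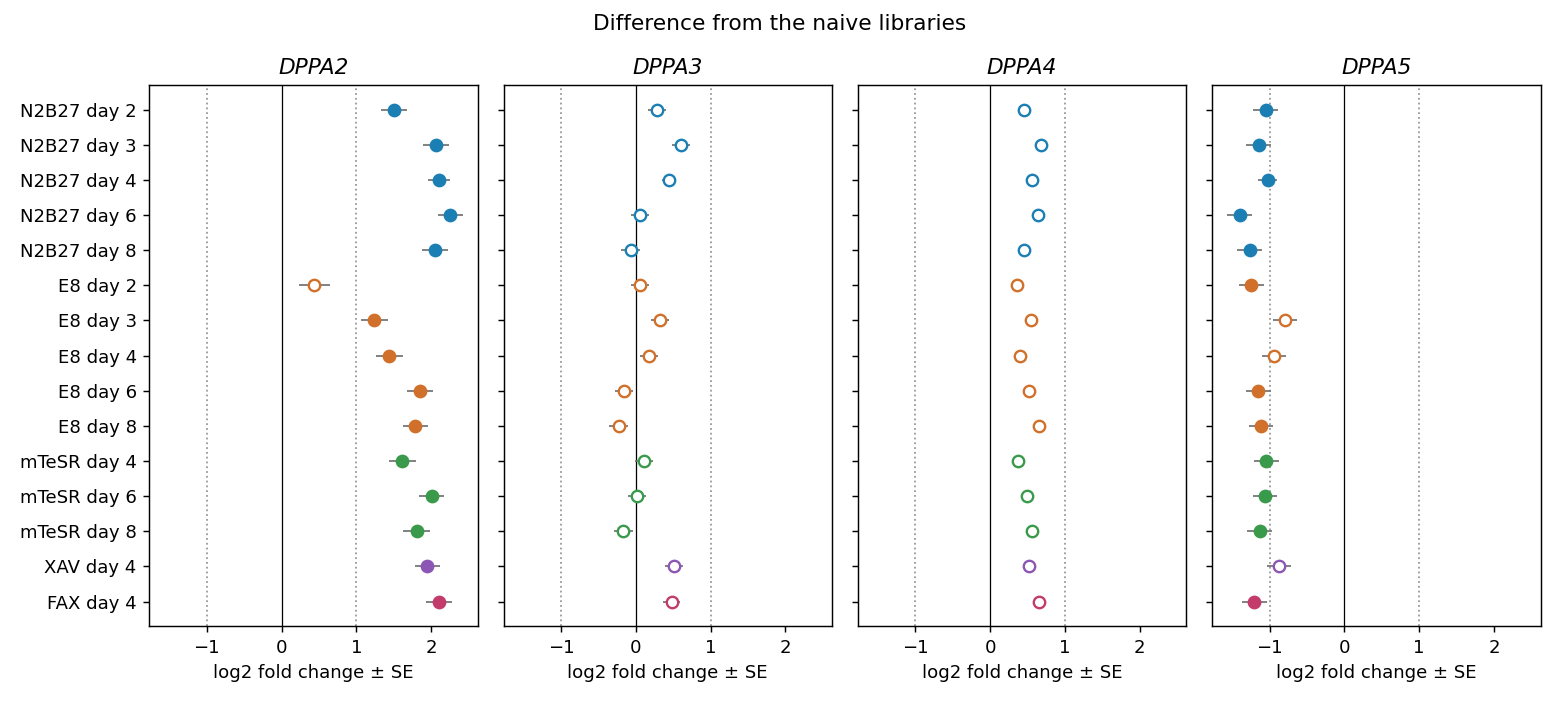
Log2 fold change from the 6 naive libraries (x axis, with SE as bars) for the 15 conditions (y axis) and the 4 DPPA genes (panels). Filled points were called and open points were not, and dotted lines mark a log2 fold change of 1 in either direction. DPPA2 is filled in 14 conditions and DPPA5 in 12, and DPPA3 and DPPA4 in none.

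DPPA3 has a near-identical pseudogene that was counted too. DPPA3P2, on chromosome 14 at 36371412 to 36371889, aligned to bases 137 to 614 of the 1100-base DPPA3 transcript over 478 columns, 471 of them identical (98.5%), and so almost wholly before its last 500 bases. It was counted in every library and held 31.6% to 43.3% (median 39.9%) of the summed DPPA3 and DPPA3P2 counts. The share was 38.01% ± 2.26 in the naive libraries and 38.1% ± 3.37 in the 6 day 8 libraries, a difference smaller than the spread between libraries. Of the 451 windows of 50 bases (the read length) in the last 500 bases of DPPA3, 50.3% were also present in a transcript of another gene, mainly ENSG00000290759, whose transcript also held the whole DPPA3P2 sequence, against 10.6% for DPPA2, 0.741% over the 8 annotated transcripts of DPPA4 and 0 of 451 for DPPA5. Whether reads of DPPA3 were counted for DPPA3P2, or the reverse, was not tested, so the level of DPPA3 is uncertain. With both rows summed, DPPA3 was again called in 0 of 15 conditions, and its log2 fold change in N2B27 at day 3 was 0.60. Against all naive libraries, the rise in N2B27 at day 2 (0.35, edgeR adjusted p 0.00700) and the fall in E8 at day 8 (-0.29, edgeR adjusted p 0.0240) then passed the threshold. The other 9 pseudogene rows of the family reached at most 4 counts in a library.

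**Figure D3:**
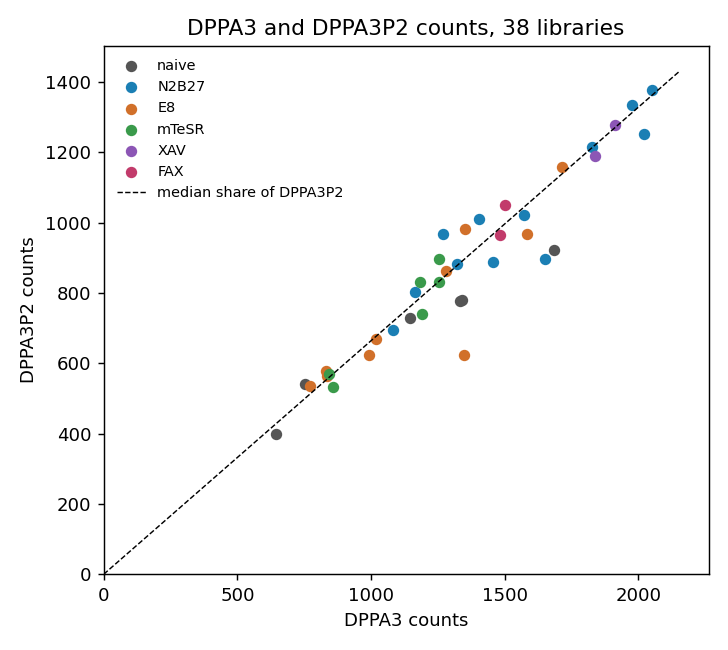
Counts of DPPA3 (x axis) and of the pseudogene DPPA3P2 (y axis) in the 38 libraries, coloured by medium, both axes from 0. The dashed line is the median share of DPPA3P2, 39.9% of the summed counts, and shares run from 31.6% (an E8 day 8 library, the point farthest below the line) to 43.3%.

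DPPA2 was the member with a call between media, and its value in E8 was below that in N2B27 on all 5 days. At day 2, DPPA2 was lower in E8 than in N2B27 by a log2 difference of -1.07 ± 0.20 (edgeR adjusted p 0.00069), the only call among 56 comparisons of a member between media at equal days. The difference was -0.82 ± 0.18 at day 3 (edgeR adjusted p 0.00502) and -0.80 ± 0.17 at day 4 (edgeR adjusted p 0.00299), under the fold limit. At any fold, 13.7%, 6.06% and 7.93% of all genes passed the adjusted p at days 2, 3 and 4. The E8 difference of DPPA2 was -0.40 ± 0.17 at day 6 and -0.26 ± 0.17 at day 8, with edgeR adjusted p of 0.111 and 0.324. In mTeSR at day 4, DPPA2 was also lower than in N2B27 (-0.63 ± 0.17, edgeR adjusted p 0.0299, passed by 4.73% of all genes), and mTeSR differed from E8 by 0.17 ± 0.18 at that day. The mTeSR difference missed the threshold whichever of its 4 libraries was left out (-0.72 to -0.53). The E8 difference at day 4 missed it without N2B27 day 4 replicate 1 (-0.70, edgeR adjusted p 0.0585) and without E8 day 4 replicate 1 (-0.76, edgeR adjusted p 0.0653).

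Some libraries behind these early differences stood apart. A library score, the position of each library along the main axis on which replicates differed (scaled to an SD of 1), was 2.71 in N2B27 day 2 replicate 2, 2.55 and 2.565 in the E8 day 2 libraries and 2.29 in E8 day 3 replicate 1, and -1.41 to 1.07 in the other 34 libraries. DPPA2, DPPA3 and DPPA5 were lower in the high-score replicate of N2B27 day 2 and of E8 day 3. DPPA4 was lower in that of N2B27 day 2 (577 against 628 CPM) and higher in that of E8 day 3 (682 against 599). The E8 day 2 libraries also had the highest mitochondrial share of counts (3.62% and 3.63%) and the lowest TMM factors (0.903 and 0.904). What the score stands for was not tested. DPPA2 read 57.0 against 86.2 CPM in N2B27 at day 2 and 44.1 against 74.9 in E8 at day 3. In the same order DPPA3 read 276 against 366 and 307 against 354, and DPPA5 read 163 against 271 and 214 against 307. Since both E8 day 2 libraries scored high, a fit with the score cannot tell the score apart from an effect of that group. With the score as a covariate, the day 2 difference of DPPA2 between E8 and N2B27 was -0.81 (edgeR adjusted p 0.000297), no longer past the fold limit. DPPA2 in E8 at day 2 was then called higher than naive (1.07, edgeR adjusted p 0.000822). DPPA3 in N2B27 at day 2 passed the adjusted p (0.44, edgeR adjusted p 0.0159). The E8 differences from N2B27 at days 6 and 8 then passed the adjusted p too, as did mTeSR against N2B27 at day 6 (-0.25 without the score). The day 6 difference of E8 passed in 3 refits, so which days passed depended on the fit. DPPA5 was then called lower than naive in 9 of 15 conditions, with -0.63 in E8 at day 2 and -0.68 in N2B27 at day 2, and DPPA4 in E8 at day 2 missed the threshold (0.26, edgeR adjusted p 0.0637). Without N2B27 day 2 replicate 1 the day 2 difference of DPPA2 between the media was -0.74 (edgeR adjusted p 0.0525), and without E8 day 2 replicate 1 it was -0.93. Without E8 day 3 replicate 2 the day 3 difference was -1.26 and was called, and DPPA2 in E8 at day 3 was then 0.81 above naive and not called. Without E8 day 3 replicate 1, or without all 4 high-score libraries, the day 3 difference was -0.50 or -0.49 (edgeR adjusted p 0.144 and 0.0928).

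DPPA3, DPPA4 and DPPA5 had no call between media. DPPA3 was lower in E8 than in N2B27 on all 5 days, by -0.16 to -0.28 on the log2 scale, and the lowest edgeR adjusted p was 0.150. Its difference between mTeSR and N2B27 at day 4 was -0.34 ± 0.12 (edgeR adjusted p 0.0855), which passed in 3 refits: with the library score as a covariate, without the 4 libraries of highest score, and with the compared libraries alone. DPPA4 differed between E8 and N2B27 by -0.17 ± 0.08 at day 4 and by 0.20 ± 0.08 at day 8 (edgeR adjusted p 0.0929). DPPA5 was at 0.36 ± 0.19 in E8 against N2B27 at day 3 (edgeR adjusted p 0.286) and at -0.33 ± 0.19 in FAX against XAV. Each of these DPPA5 values passed in 1 refit, as did DPPA4 in E8 at day 8, DPPA5 in mTeSR at day 6 and DPPA3 in E8 at days 4 and 6 against N2B27, and DPPA3 in E8 at day 2 passed in 2. The share of all genes called between E8 and N2B27 was 4.55%, 1.68%, 2.49%, 5.28% and 7.29% at days 2, 3, 4, 6 and 8. Between mTeSR and N2B27 it was 1.58%, 2.62% and 3.80% at days 4, 6 and 8, and between mTeSR and E8 it was 0.0840%, 1.10% and 5.31%. In Ex2 at day 4 it was 0.570% for XAV and 0.336% for FAX against N2B27, and 0.0120% for FAX against XAV.

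**Figure D4:**
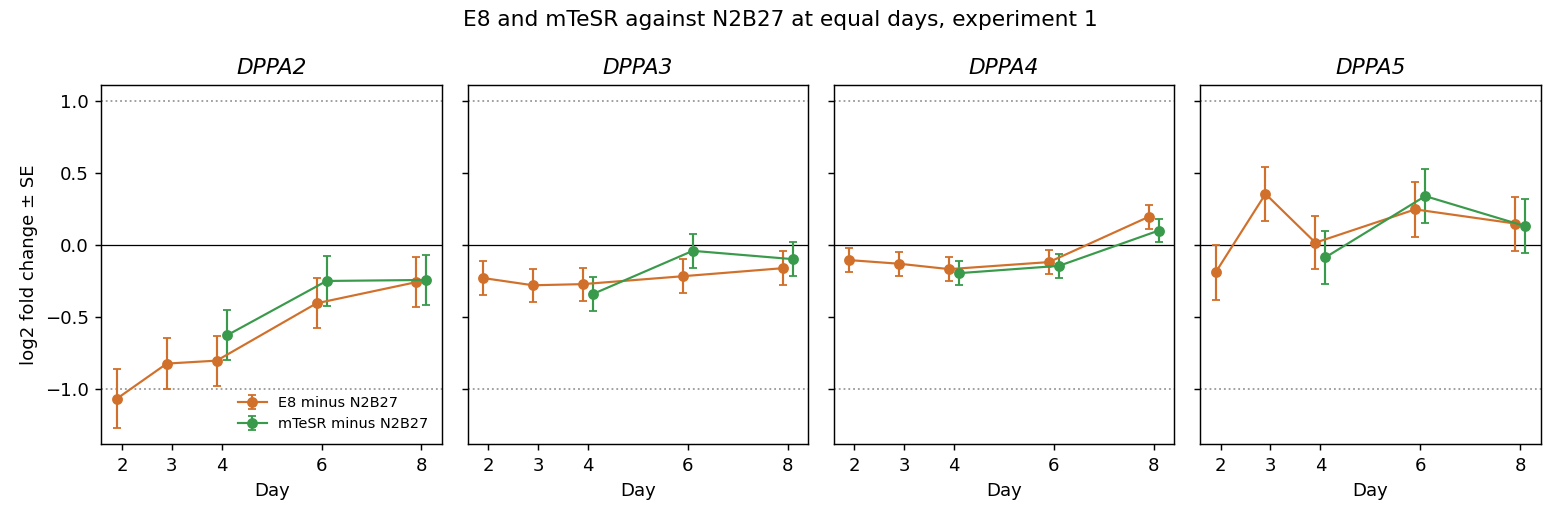
Log2 fold change of E8 (orange) and mTeSR (green) against N2B27 at equal days of experiment 1 (y axis, with SE as bars) against the day (x axis), for the 4 DPPA genes. Dotted lines mark a log2 fold change of 1 in either direction. DPPA2 in E8 runs from -1.07 at day 2 to -0.26 at day 8, and the other 3 genes stay between -0.34 and 0.36.

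Between consecutive days of 1 medium, none of 40 comparisons of a member was called by edgeR or by DESeq2, and 13 had an unadjusted edgeR p under 0.05, where the share of all genes ran from 12.8% to 34.0% over the 10 steps (mean 20.4%). The adjusted p was under 0.05 for DPPA2 from day 2 to 3 in E8 (0.80 ± 0.21, edgeR adjusted p 0.00567) and in N2B27 (0.56 ± 0.18, edgeR adjusted p 0.0373), and for DPPA3 from day 4 to 6 in N2B27 (-0.39 ± 0.12, edgeR adjusted p 0.0230). At that threshold, with no fold limit, 21.4%, 10.7% and 12.5% of all genes passed in these 3 steps. Another 10 steps of a member missed it and passed in 1 to 4 refits each. The DPPA3 step missed the threshold without either N2B27 day 4 library (-0.44 and -0.40) and without N2B27 day 6 replicate 2 (-0.31, edgeR adjusted p 0.248). The 2 DPPA2 steps rest on days with a high-score library. Without E8 day 3 replicate 1 the E8 step was 1.11 and was called, and without E8 day 3 replicate 2 it was 0.36 (edgeR adjusted p 0.344). The N2B27 step was 0.88 without N2B27 day 2 replicate 1 and 0.29 without N2B27 day 2 replicate 2 (edgeR adjusted p 0.484). With the score as a covariate the steps were 0.33 in E8 and 0.27 in N2B27, and neither passed. Of all genes, 3.18%, 1.09%, 3.89% and 1.43% were called over the successive N2B27 steps. The shares were 7.56%, 0.810%, 2.51% and 0.804% over the E8 steps and 2.91% and 0.978% over the mTeSR steps.

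The interaction of medium and day asked whether changes after the first shared day differed between media (day 2 for E8, day 4 for mTeSR). A constant offset between media, or a difference already there on that day, is not tested by it. Of all genes, 11.0% passed for E8 against N2B27 and 2.18% for mTeSR against N2B27. No member passed for E8, where the edgeR adjusted p was 0.124 for DPPA2, 0.970 for DPPA3, 0.130 for DPPA4 and 0.524 for DPPA5. The unadjusted p was under 0.05 for 2 of them, 0.0236 for DPPA2 and 0.0255 for DPPA4 by edgeR. For mTeSR over days 4 to 8 no member passed either, and 1 had an unadjusted p under 0.05 (DPPA4, edgeR adjusted p 0.341). Without N2B27 day 2 replicate 2, without E8 day 3 replicate 2 or with no filter on low counts, the E8 course of DPPA2 passed.

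The reference groups themselves were close for DPPA4 and DPPA5. Naive cells on Geltrex and on serum differed by 0.35 ± 0.21 for DPPA2, 0.14 ± 0.12 for DPPA3, 0.01 ± 0.08 for DPPA4 and -0.01 ± 0.18 for DPPA5, with 0.0480% of all genes called. Between naive Geltrex libraries of Ex2 and Ex1, DPPA2 differed by -0.71 ± 0.23 (edgeR adjusted p 0.0351) and DPPA3 by -0.49 ± 0.12 (edgeR adjusted p 0.00416), and 4.67% of all genes were called and 15.2% passed the adjusted p. The Ex2 naive libraries are titled as day 0 but their library names carry d4. They were taken as naive by title, and every difference between the experiments in naive cells rests on that. The DPPA2 difference was -0.39 (edgeR adjusted p 0.465) without replicate 2 of the Ex1 naive cells on Geltrex, which had the highest naive DPPA2, and it also missed the threshold without either Ex2 library. The DPPA3 difference missed it without Ex2 replicate 2 (-0.46, edgeR adjusted p 0.0525). N2B27 at day 4 differed between experiments by -0.30 ± 0.17 for DPPA2 and by 0.00 ± 0.11 for DPPA3, with 1.01% of all genes called. None of the 12 comparisons of a member was called by edgeR or DESeq2, and 2 had an unadjusted edgeR p under 0.05, where the share of all genes was 14.1% to 28.2%.

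Ratios of 2 members within a library do not depend on how libraries are scaled. All 6 ratios differed between the 6 naive and the 6 day 8 libraries of Ex1 (2 each of N2B27, E8 and mTeSR), with no overlap. The exact two-sided permutation p was 0.002165, the smallest that 924 arrangements allow (0.002165 after adjustment over the 6 pairs). This test takes all libraries as exchangeable, though they are replicate pairs from several media, coatings and experiments, so its p is a description. The 6 ratios come from 4 genes and are not independent. They partly restate the calls of DPPA2 and DPPA5 against naive cells, and how many other gene pairs separate was not counted. The log2 ratio of DPPA2 to DPPA5 rose most, from -4.20 ± 0.41 (SD, n = 6) to -1.10 ± 0.23, a difference of 3.104. DPPA2 rose relative to DPPA3 by 2.08 and relative to DPPA4 by 1.38. DPPA4 rose relative to DPPA5 by 1.73 and DPPA3 rose relative to DPPA5 by 1.03, while the ratio of DPPA3 to DPPA4 fell by 0.70. In the 3 media taken singly the DPPA2 to DPPA5 difference was 3.37 in N2B27, 2.96 in E8 and 2.99 in mTeSR.

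**Figure D5:**
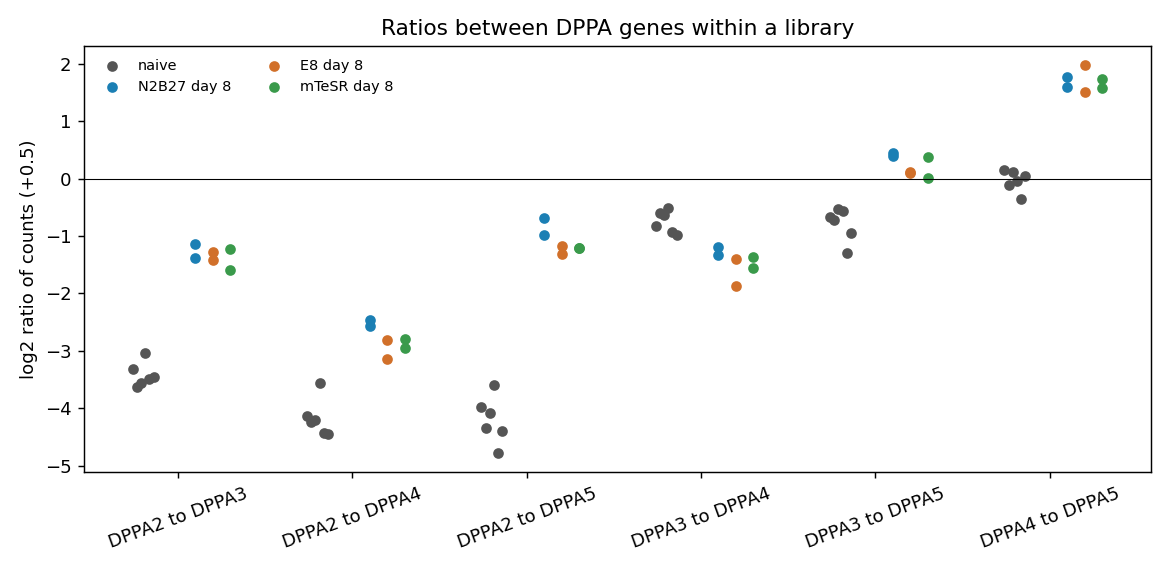
Log2 ratio of the counts of 2 DPPA genes within a library, after adding 0.5 counts to each (y axis), for the 6 pairs (x axis). Grey points are the 6 naive libraries and coloured points the 6 day 8 libraries of experiment 1. In each pair the 2 sets do not overlap, and DPPA2 to DPPA5 differs most, by 3.104.

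Over the 19 group means of log2 CPM, DPPA2 and DPPA4 had a Pearson correlation of 0.91, and DPPA5 ran opposite to both (-0.83 with DPPA2 and -0.89 with DPPA4). Without the 3 naive groups the values were 0.64, -0.17 and -0.22 over 16 groups. DPPA3 correlated with the others by -0.17 to 0.35. These groups share media, days and naive libraries, and the values are descriptions. Among 7133 other genes with a mean of at least 20 CPM, those nearest to DPPA2 were SLC9A3R1 (0.96), FOXO1, a forkhead transcription factor (0.95), and GSR, glutathione reductase (0.95). ETV5, an ETS factor induced by FGF signalling (0.93), ELAVL2, an RNA-binding protein (0.93), and CD24, a surface marker of the primed state (0.93), were nearest to DPPA4. CD24 went from 96.6 CPM in naive cells to 491, 875 and 861 CPM at day 8 in N2B27, E8 and mTeSR. The nearest to DPPA5 were DEGS1, a ceramide desaturase (0.93), ATP6V1A, a subunit of the vacuolar proton pump (0.93), and PINK1, a mitochondrial kinase (0.92). DPPA3P2 (0.95), the kinase gene MAP3K7 (0.92) and CIP2A (0.90) were nearest to DPPA3.

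The state of the cells around these courses was described with fixed lists. Among 10 other naive markers 9 were called lower at day 8 in each of N2B27, E8 and mTeSR, and all 8 primed or formative markers were called higher. Median log2 fold changes were -2.0, -2.30 and -2.38 for the naive markers and 7.61, 6.87 and 7.16 for the primed markers, beside -0.03, 0.00 and -0.02 over all genes. POU5F1, a core pluripotency factor, was not called, at 405 CPM in naive cells, 317 in N2B27, 415 in E8 and 411 in mTeSR, and of 7 general pluripotency genes 2, 3 and 2 were called higher and none lower (medians -0.13, 0.52 and 0.48). Hypoblast markers also rose, summing to 170 to 192 CPM in N2B27 at day 8 against 0.683 to 4.21 in naive cells, with 6 of 6 called higher. E8 libraries summed to 18.4 to 22.7 CPM and mTeSR libraries to 84.0 to 85.5 at day 8, and what part other cell types had in the DPPA levels was not tested. Of 6 trophectoderm markers tested 4, 1 and 0 were called higher in N2B27, E8 and mTeSR and 1, 1 and 0 lower, and of 4 amnion markers 3, 2 and 3 were called higher and 0, 1 and 1 lower. Of 4 fibroblast markers tested 3 were called higher in each medium, led by the collagen gene COL1A2 at 140.1, 64.6 and 121 CPM, while DCN stood at 0.188 CPM or less. In bulk RNA, fewer cells with a transcript and less transcript per cell cannot be told apart.

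The genes of DNA methylation, on which DPPA3 acts, were read at day 8, where 16.9%, 18.2% and 16.9% of all genes were called higher and 7.03%, 9.24% and 8.20% lower in N2B27, E8 and mTeSR. These shares are also the background of the other lists at day 8. Of 12 genes, 2 were called higher and 3 lower in N2B27, 3 and 3 in E8, and 2 and 3 in mTeSR, with medians of -0.23, -0.02 and -0.04. UHRF1 fell in N2B27, E8 and mTeSR, with log2 fold changes of -1.26 ± 0.23, -1.39 ± 0.23 and -1.13 ± 0.23. DNMT3L, the catalytically inactive partner of the de novo enzymes, had -2.62 ± 0.16, -3.32 ± 0.17 and -2.97 ± 0.17. TET2, a dioxygenase that oxidises methylcytosine, was called lower too. UHRF2, a paralog of UHRF1, and DNMT3B, a de novo methyltransferase, were called higher in all 3 media, DNMT3B by 1.16 ± 0.12, 1.80 ± 0.12 and 1.904 ± 0.12. DNMT1, the maintenance enzyme, had log2 fold changes of 0.43 ± 0.15, 0.40 ± 0.15 and 0.45 ± 0.15.

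Of the KH domain and subcortical maternal complex genes, 8 of 10 were tested, and 4 were called lower in N2B27 and 5 each in E8 and mTeSR at day 8. OOEP, 4383 bases beyond KHDC3L on chromosome 6, fell, with log2 fold changes of -1.24 ± 0.20, -2.57 ± 0.23 and -2.28 ± 0.23. KHDC3L, which lies between DPPA5 and OOEP, was not called, with 0.09 ± 0.12, -0.05 ± 0.12 and 0.30 ± 0.12. KHDC1L fell from 644 CPM in naive cells to 134, 47.9 and 51.7 in N2B27, E8 and mTeSR. The median of the list was -0.86, -1.54 and -1.43. ZBED3 was the member called higher, in E8 (1.35 ± 0.27).

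DPPA2 and DPPA4 help to switch on genes of zygotic genome activation in the mouse. Of 14 such genes 9 were tested, and 8 were called higher and 1 lower in N2B27 and in E8, with 3 higher and 1 lower in mTeSR at day 8. CCNA1, a cyclin, rose from 15.1 CPM in naive cells to 149, 129 and 37.1 in N2B27, E8 and mTeSR, and TRIM43 rose from 3.43 to 40.4, 42.0 and 11.4. The median of the list was 2.91, 2.06 and 0.76. ARGFX, a homeobox gene, was called lower. DUX4, the factor at the head of this programme, had no counts in 29 of 38 libraries. The summed level of the list was 28.3 to 39.1 CPM in naive cells. At day 8 the N2B27 libraries summed to 258 and 304, those of E8 to 194 and 261, and those of mTeSR to 70.5 and 70.9. CCNA1 was the largest part of these sums. LEUTX, DUXA, DUXB, DUX4 and KDM4E had too few counts to be tested, at most 12 in a library (DUXA), so the sums do not describe the whole list.

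The 9 germ cell markers summed to between 461 and 635 CPM in naive libraries and to between 474 and 666 CPM at day 8. In naive cells TFAP2C, a transcription factor, stood at 429.9 CPM, DND1 at 56.5, PRDM1 at 51.8 and KIT, a receptor, at 32.8 CPM. NANOS3, a germ cell RNA-binding protein, had no counts in 32 of 38 libraries and stood at 0.0374 CPM in naive cells, and DDX4 at 0.645 CPM. Of 9 markers 7 were tested, with 2 called higher and none lower in N2B27, 2 and 1 in E8 and 1 and 1 in mTeSR at day 8 (medians 0.29, 0.03 and 0.33). SOX17, also a hypoblast gene, was called higher in all 3 media, and PRDM1 was called lower in E8 and mTeSR (-2.73 ± 0.26 and -1.74 ± 0.24).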

How the data were processed

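The deposited table held raw gene counts of 38 QuantSeq 3′ libraries, which the authors made from 50-base single-end reads with an nf-core pipeline (Salmon 1.9.0, STAR 2.7.10a and FastQC 0.11.9, genome build hg38, tools and build per the submitters' processing notes and the methods). Totals ran from 3038046 to 5612354 counts (median 4427277), which limits the precision for genes of few counts. The annotation release and the strand setting of the counting are not given in the sources used here.

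Counts were fitted with edgeR 4.0.16 (R 4.3.3, quasi-likelihood F-test, TMM scaling, filterByExpr, which kept 16674 genes with 99.65% of the counts). One fit had 16 conditions, for comparisons with the 6 naive libraries, and another had 19 groups, for media, days and experiments. Adjustment was by Benjamini-Hochberg over all genes of a comparison, and a call needed an adjusted p under 0.05 and a log2 fold change above 1 in size. CPM use TMM library sizes over the tested genes. SE is the log2 fold change over the root of F. Ratios used counts plus 0.5 and an exact permutation test over libraries. Group-mean correlations used log2 CPM with a prior count of 2.

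The members, lists and tests were chosen with earlier results of these data known. Named genes were the members, their pseudogene rows, up to 3 genes nearest to each member by correlation, and genes of the lists. Other naive, primed, pluripotent, germ cell, trophectoderm, amnion, hypoblast and fibroblast lists described the cells. The scripts were tested on simulated data. Alternatives were other scalings, filters, DESeq2 1.42.0, other naive references, an experiment term, a replicate block, the library score and leaving out each library. Gene positions came from GENCODE v44 and promoters from RefSeq (GRCh38.p14), where all 4 members matched. Replicates differed by more than counting noise in every group (chi-square per degree of freedom 1.34 to 10.2 over genes).

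Replicate numbers occur in every group. Deviations of same-numbered libraries correlated by -0.594 to 0.500 over 171 pairs of groups (median 0.00283), with 36 pairs over 0.1, so the numbers were not taken to pair the libraries.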

Additional observations from a re-analysis of the deposited data

Results flagged for a closer look

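Of 20 groups of 4 or 6 values checked for a library far from the rest, 2 stood out, and chance gives about 1 in 20. DPPA2 in replicate 2 of the Ex1 naive cells on Geltrex was at 37.0 CPM, far above the other 5 naive libraries. The log2 ratio of DPPA2 to DPPA4 in the same library was -3.55, above the other naive libraries. Without it, DPPA2 in E8 at day 2 passed the threshold against naive cells.

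The change of DPPA3 from naive Geltrex cells to N2B27 at day 4 differed between the experiments, by 0.494 on the log2 scale (Ex2 minus Ex1, edgeR interaction, adjusted p 0.0466). The difference missed the threshold in 10 of 16 refits, among them all 8 that left out 1 library, where it ran from 0.45 to 0.56. It rests on taking the Ex2 naive libraries as day 0 by their titles, although their library names carry d4.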

How the results depend on the processing

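Calls against naive cells ranged over all refits from 13 to 15 of 15 conditions for DPPA2 and from 9 to 13 for DPPA5, and stayed at 0 for DPPA3 and DPPA4. With 1 library left out they ran from 13 to 14 for DPPA2 and from 9 to 13 for DPPA5. The single call between media became 0 with the library score as a covariate and it ran from 0 to 2 with 1 library left out. Without the 4 libraries of highest score (chosen after seeing the data) there were 0 calls, but E8 at day 2 then had no library, so the comparison with the call could not be made. Calls between consecutive days ran from 0 to 1 and courses from 0 to 1 when 1 library was left out, and 1 course passed with no filter on low counts. The cause of these changes was not tested. Calls between reference groups kept their count under the alternatives run. The 6 ratios kept their side of the threshold in the 3 alternatives with a test (naive libraries of Ex1 only, pseudocount 2, DPPA3 with DPPA3P2) and their sign in the 3 with day 8 of a single medium, which were not tested. Of 1224 refits of 59 single results past the threshold, 47 missed it and 0 changed direction. Summing DPPA3 with DPPA3P2, also chosen after seeing the data, changed no count of calls.

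With the replicate number as a block the counts of calls were 14, 0, 0 and 12 for DPPA2, DPPA3, DPPA4 and DPPA5, and 1 between media, and DPPA2 in E8 against N2B27 at day 2 was -1.07 (edgeR adjusted p 0.000794). The block changed no count of calls of the members.

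Over all genes, calls differed by more than 1.5 times from the values given in 7 of 14 comparisons between media and 8 of 10 between days under DESeq2, and in 7 and 6 of them when only the compared libraries were fitted. Against naive cells they did so in 2 of 15 comparisons with the library score in the model, where the lowest count was 1708 instead of 2603. Groups of 2 libraries limit the precision of every comparison.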
